A study of Mus musculus with 13 samples.

Results

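Smooth muscle and enteric neuron genes of the gut wall were followed through 9 genes, taken by symbol from the array annotation out of 17896 named genes. The contractile set holds 7 of them (Acta2, Actg2, Myh11, Cnn1, Des, Tagln and Synm) and the neuron set the other 2 (Vip and Uchl1). Synm was listed under its older symbol, Dmn. The 9 genes have 15 of the 25697 probes, and 13 of these were among the 11887 probes tested. A probe was tested when its detection p, the array's own comparison with negative control beads, was under 0.05 on at least 5 of the 13 arrays. The other 2 were the dimmest probe of Synm, detected on 4 arrays, and the dimmer probe of Vip, detected on 0.

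Male C57BL/6J mice gave total RNA of the proximal small intestine, with 1 Illumina MouseRef-8 v2.0 bead array per mouse. In the ezetimibe group, 5 mice ate lab chow that contained 0.005% ezetimibe, and in the control group 8 mice were listed as control, with no agent named. Ezetimibe inhibits cholesterol absorption by binding NPC1L1 in the enterocyte brush border. The labels number the arrays as biological replicates and give no age, feeding time or dissection detail.

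The wall of the small intestine has an outer muscle coat, in which circular and longitudinal smooth muscle produce peristalsis, and a thin muscle layer under the mucosa. Their cells contract when myosin acts on thin filaments of smooth muscle actin, and intermediate filaments carry the force across the cell. Neurons of the myenteric and submucosal plexuses lie in and between these layers and control contraction, secretion and blood flow. In whole-wall RNA a level of a muscle or neuron gene reflects both the number of such cells in the piece and the RNA in each of them, and fewer cells of a type cannot be told apart from less RNA per cell.

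Smooth muscle genes are known targets of serum response factor, which binds the CArG box, a pair of C, a core of A and T and a pair of G. The promoter sequences of 4 contractile genes are shown, the only contractile genes with a sequence in the promoter set used. Acta2, by its 2 brightest probes, and Des passed the test of co-variation with Myh11 described below, and Synm and Cnn1 did not. Each is the 250 bases before a start site annotated in RefSeq, build GRCm38.p6, 5′ to 3′ on the gene's strand: chr19:34255374-34255623 on the minus strand for Acta2, chr1:75360042-75360291 on the plus strand for Des, chr7:67759743-67759992 on the minus strand for Synm and chr9:22099003-22099252 on the plus strand for Cnn1. For Acta2 and Cnn1 the window overlaps the annotated gene (chr19:34240336-34255585 and chr9:22099221-22109221), so the start site used is not the outermost one. Capitals mark matches to the CArG box that have 1 C or G in the core.
Acta2: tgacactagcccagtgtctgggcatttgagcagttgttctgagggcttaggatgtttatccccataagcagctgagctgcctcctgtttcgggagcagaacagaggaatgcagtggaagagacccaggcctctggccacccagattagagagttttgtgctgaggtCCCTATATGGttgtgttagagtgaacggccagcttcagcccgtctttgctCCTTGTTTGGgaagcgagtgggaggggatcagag
Des: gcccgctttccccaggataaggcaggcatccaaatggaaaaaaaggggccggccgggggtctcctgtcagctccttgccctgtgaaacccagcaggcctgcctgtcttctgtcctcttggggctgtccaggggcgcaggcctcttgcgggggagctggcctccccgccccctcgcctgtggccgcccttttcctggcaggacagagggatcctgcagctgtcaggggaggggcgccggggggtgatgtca
Synm: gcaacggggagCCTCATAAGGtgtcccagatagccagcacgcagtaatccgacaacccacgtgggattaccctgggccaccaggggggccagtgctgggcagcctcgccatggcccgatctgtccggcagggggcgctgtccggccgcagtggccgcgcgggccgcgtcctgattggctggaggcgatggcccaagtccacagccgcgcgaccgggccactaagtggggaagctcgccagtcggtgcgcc
Cnn1: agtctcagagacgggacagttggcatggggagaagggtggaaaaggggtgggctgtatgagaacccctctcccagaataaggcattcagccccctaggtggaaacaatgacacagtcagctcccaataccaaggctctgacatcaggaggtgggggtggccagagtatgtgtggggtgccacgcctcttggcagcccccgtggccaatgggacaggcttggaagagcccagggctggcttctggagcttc
Acta2 has 2 such matches, whose first bases lie 84 and 34 bases before the start site used. Synm has 1, at 239 bases before the start, and Des and Cnn1 have 0 in this window. The promoters of Vip and Uchl1 were searched too and also have 0, and no strict match, with only A and T in the core, was found in any of the 6. Both strands were searched, and no other motif. Of 32851 promoters of the same length, 8.59% hold a match with at most 1 C or G in the core. That share includes the 1.47% with a strict match. A match in these letters is a description, and binding was not tested. The promoter set used held no sequence for Actg2, Myh11 and Tagln.

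The arrays lay on 2 slides, with 2 ezetimibe and 4 control arrays on slide 1 and 3 ezetimibe and 4 control arrays on slide 2. The median probe signal was 146.9 to 152.8 on slide 1 and 120.7 to 127.9 on slide 2, and 11085 to 12380 probes were detected per array. In limma, 6330 probes (53.3%) differed by slide past an adjusted p of 0.10. Every model therefore included slide, and levels below are slide-adjusted log2 intensities. Epithelial markers of the labelled tissue were present: 11 of 15 were tested, and their mean log2 intensity was 11.39 to 11.55 in the ezetimibe arrays and 11.30 to 11.51 in the control arrays. The mean of exocrine pancreas markers, 19 of 20 tested, ran from 6.64 to 13.10 in the ezetimibe arrays and from 6.52 to 12.14 in the control arrays, so these markers differed widely between mice of both groups. Precision is set by how few arrays there are.

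The first comparison asked whether dietary ezetimibe changed the level of muscle and neuron genes. None of the 13 tested probes passed an adjusted p under 0.10 in limma, against 30 of all 11887 probes (0.252%), 28 of them higher (0.236%) and 2 lower (0.0168%) with ezetimibe. The brighter probe of Vip was the 1 probe of the 13 with an unadjusted p under 0.05, against 735 of all probes (6.18%). The 7 contractile genes, each by its brightest probe, had a median log2 fold change of -0.0041 for ezetimibe over control, and 3 of the 7 lay above 0. Over all tested probes the median was -0.001.

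Acta2 encodes the alpha actin of smooth muscle. Its brightest probe read 12.44, 12.84, 12.97, 12.50 and 12.59 in the 5 ezetimibe arrays, and from 12.40 through a median of 12.60 to 12.91 in the 8 control arrays. All but 1 of the ezetimibe values lay within the control range. The means were 12.67 ± 0.23 (SD, n = 5) in the ezetimibe arrays and 12.67 ± 0.18 (SD, n = 8) in the control arrays, a log2 fold change of -0.004 ± 0.106 (SE, limma, adjusted p = 0.998) with a 95% interval of -0.23 to 0.22. Of the contractile genes it was measured with the narrowest interval on its best probe.

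Actg2 encodes the gamma actin of smooth muscle, the main actin of gut muscle. It read 10.63, 11.35, 11.37, 10.76 and 11.07 in the ezetimibe arrays, and from 10.66 through a median of 11.03 to 11.26 in the control arrays. The ezetimibe arrays were the wider group, with 1 below and 2 above every control. Means were 11.04 ± 0.34 (SD, n = 5) in the ezetimibe arrays and 11.03 ± 0.20 (SD, n = 8) in the control arrays, and the log2 fold change was 0.001 ± 0.134 (SE, limma, adjusted p = 1; 95% interval -0.28 to 0.29).

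Myh11 encodes the heavy chain of smooth muscle myosin, the motor that pulls on these actins. Its values were 9.46, 10.29, 10.56, 9.82 and 9.88 in the ezetimibe arrays, against a lowest of 9.41, a median of 9.93 and a highest of 10.48 in the control arrays. The groups overlapped almost fully, and ezetimibe array 3 and control array 1 were the highest of their groups. The log2 fold change was 0.08 ± 0.20 (SE, limma, adjusted p = 0.974), with an interval of -0.33 to 0.50. Between mice within slide and group Myh11 varied more than 93.3% of all tested probes, over a range of 1.15 on the log2 scale.

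Tagln encodes transgelin, an actin-binding protein of smooth muscle, and read 6.17, 6.88, 7.19, 6.39 and 6.35 in the ezetimibe arrays, against 6.14, 6.52 and 6.81 as the lowest, median and highest control values. Ezetimibe arrays 2 and 3 lay above every control and the others inside the control range. The log2 fold change was 0.10 ± 0.17 (SE, limma, adjusted p = 0.959; interval -0.25 to 0.46). Cnn1, calponin, which binds actin and inhibits the myosin ATPase, was near the detection limit and was detected on 2 of 5 ezetimibe and 7 of 8 control arrays. It read 4.70, 5.08, 4.81, 4.72 and 5.03 in the ezetimibe arrays, and from 4.81 through 4.91 to 5.32 in the control arrays. Of the ezetimibe values 2 lay below that range and 3 inside it, and the log2 fold change was -0.11 ± 0.13 (SE, limma, adjusted p = 0.934; interval -0.38 to 0.16).

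The intermediate filament genes were Des, desmin, and Synm, synemin, which binds desmin. Des read 9.21, 9.96, 10.21, 9.57 and 9.62 in the ezetimibe arrays, and from 9.65 through 9.80 to 10.17 in the control arrays. Of the ezetimibe arrays 3 lay below every control and 1 above. The log2 fold change was -0.10 ± 0.14 (SE, limma, adjusted p = 0.948; interval -0.40 to 0.20). The brighter probe of Synm read 6.76, 7.60, 7.21, 6.94 and 7.18 in the ezetimibe arrays, and from 6.93 through 7.18 to 7.82 in the control arrays. Its groups overlapped, and the log2 fold change was -0.11 ± 0.16 (SE, limma, adjusted p = 0.948).

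The dimmer tested probe of Synm ran the other way. It read 5.55, 6.30, 6.44, 6.00 and 6.32 in the ezetimibe arrays, and from 5.34 through 5.85 to 6.07 in the control arrays. Of the ezetimibe arrays 3 lay above every control, and the log2 fold change was 0.32 ± 0.17 (SE, limma, adjusted p = 0.832; interval -0.03 to 0.67). Across the 13 arrays the 2 Synm probes correlated with each other at only r = 0.41, so the gene had no single pattern on this array. Its untested dimmest probe averaged 4.76 ± 0.13 (SD, n = 5) in the ezetimibe arrays and 4.65 ± 0.17 (SD, n = 8) in the control arrays and was detected on 2 arrays of each group.

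Vip encodes vasoactive intestinal peptide, a transmitter of inhibitory motor and secretomotor neurons. The tested probe read 6.04, 6.10, 6.17, 5.94 and 5.51 in the ezetimibe arrays, and from 5.13 through a median of 5.49 to 5.71 in the control arrays. The first 4 ezetimibe arrays lay above every control, and the fifth lay near the control median. A separation of at least 4 of 5 ezetimibe arrays was found for 173 of all tested probes (1.46%). Means were 5.95 ± 0.26 (SD, n = 5) in the ezetimibe arrays and 5.46 ± 0.22 (SD, n = 8) in the control arrays.

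The log2 fold change of Vip was 0.49 ± 0.14 (SE; 95% interval 0.19 to 0.80), with an unadjusted p of 0.00372 in limma (adjusted p = 0.380), so the difference did not pass the threshold. By p it ranked 115 of the 11887 probes. The log2 fold change was 0.67 on slide 1 alone and 0.36 on slide 2 alone. The probe was dim, with an uncorrected signal of 127.3 to 206.7, where the median probe signal of an array was 120.7 to 152.8. Without background correction the log2 fold change was 0.14. With an offset of 50 and a correction that left out the detection p-values it was 0.25, so its size depended on the background step. Pancreas markers were higher in the ezetimibe arrays by a median log2 fold change of 0.55, with 0 of 19 past the threshold, against 0.252% of all probes. With their mean level as a covariate, a fit added after seeing the data, the log2 fold change of Vip was 0.49 (limma, adjusted p = 0.498). The second Vip probe averaged 4.56 ± 0.09 (SD, n = 5) in the ezetimibe arrays and 4.41 ± 0.12 (SD, n = 8) in the control arrays and was not above background on any array, so it gives no second measurement.

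Uchl1 encodes a ubiquitin hydrolase that is abundant in neurons and is used, as PGP9.5, to stain the enteric plexuses. It read 5.03, 5.40, 5.49, 5.54 and 4.70 in the ezetimibe arrays, and from 4.46 through 5.50 to 5.99 in the control arrays. All ezetimibe values lay within the control range, and the log2 fold change was -0.22 ± 0.23 (SE, limma, adjusted p = 0.920; interval -0.70 to 0.26). Detection was 4 of 5 ezetimibe and 7 of 8 control arrays, and its spread within slide and group exceeded that of 95.6% of tested probes. With 1 array left out its log2 fold change lay between -0.40 and -0.091, and with position as a covariate it was 0.0099, so its sign depended on that term.

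**Figure D1:**
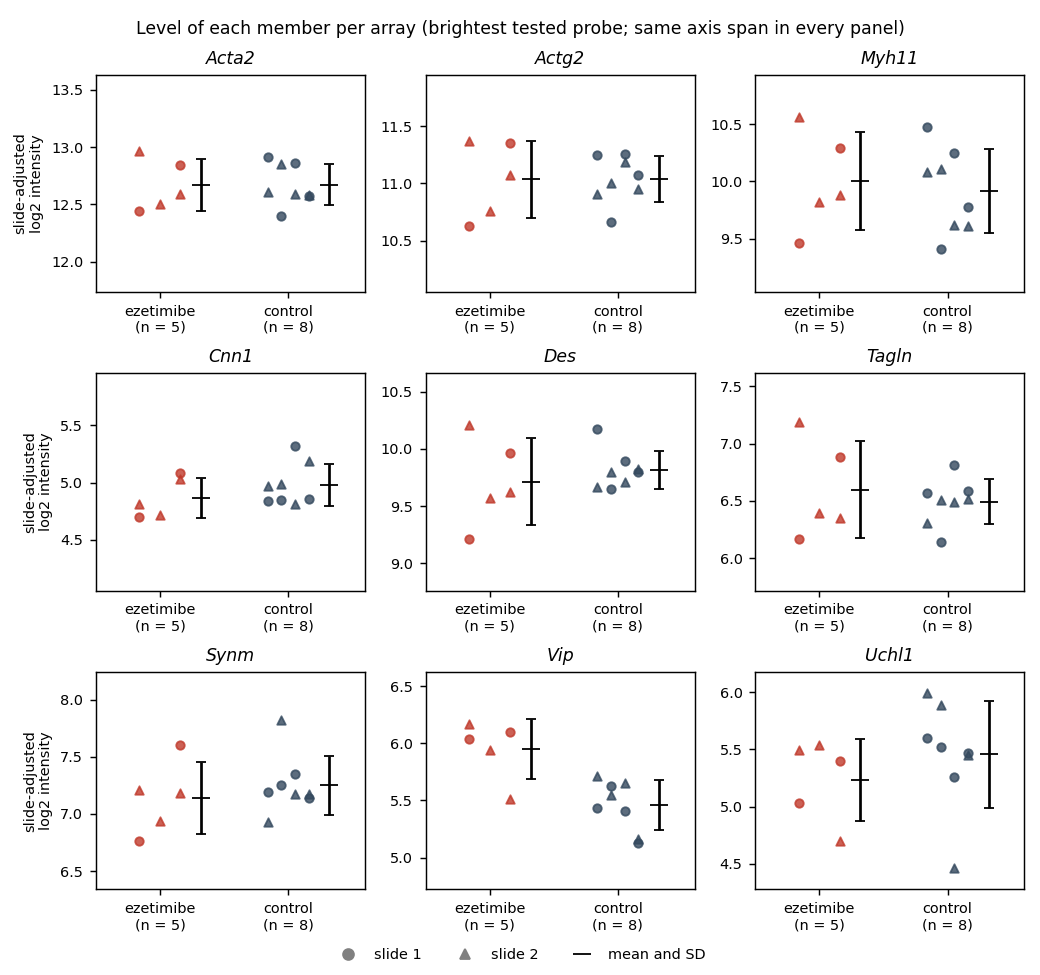
Slide-adjusted log2 intensity (y axis) of the brightest tested probe of each of the 9 genes, with ezetimibe arrays (n = 5) left of control arrays (n = 8). Points are arrays and bars the mean with SD, and the panel of Vip shows 4 of 5 ezetimibe arrays above every control while the groups overlap in the other panels.

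**Figure D2:**
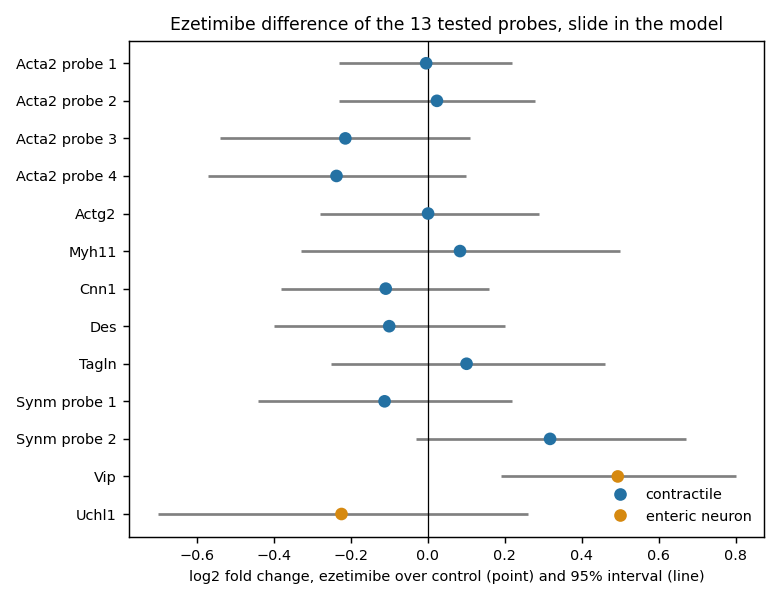
Log2 fold change of ezetimibe over control (points, x axis) with 95% intervals (lines) for the 13 tested probes, slide in the model. The interval of the Vip probe, 0.19 to 0.80, is the only one that leaves out 0, and no probe passed an adjusted p under 0.10 in limma.

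Whether the ezetimibe difference itself depended on the slide was asked with the product of slide and treatment. It passed the threshold for 0 of 11887 probes (0%) in limma, with 317 (2.67%) at an unadjusted p under 0.05. Among the tested probes of the 9 genes it was 0.65 ± 0.28 on the log2 scale for the dimmest Acta2 probe (unadjusted p = 0.0391 in limma, adjusted p = 1) and -0.31 ± 0.29 for Vip (unadjusted p = 0.300).

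The second question was whether the 9 genes moved together from mouse to mouse, which was read from the slide-adjusted levels over all 13 arrays of both groups. The contractile genes did so in part. Over their 21 pairs the median Pearson r was 0.59, with a range of 0.24 to 0.93, and it was 0.73 on slide 1, 0.48 on slide 2 and 0.60 with group means also taken out. The 15 pairs that include Vip or Uchl1 had a median of 0.08 and a range of -0.43 to 0.36.

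A tight group stood out after the values were seen: Acta2, Actg2, Myh11, Des and Tagln. Their 10 pairs had r of 0.77 to 0.93 and Spearman's rho of 0.70 to 0.93, and r was 0.62 to 0.89 without the 2 arrays farthest from the median. Unadjusted p ran from 0.00015 to 0.0065 for r and from 0.00027 to 0.0175 for rho (two-sided permutation tests within slides, 100000 resamples each). In all, 36 pairs were computed. The p-values are not adjusted over them, and the genes were chosen with results of these data known. Because the tight group was picked after its r was seen, these p-values describe its pairs and do not test the group.

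The closest pair was actin with its motor. Acta2 and Myh11 had r = 0.93 (permutation p = 0.00015) and rho = 0.93 (permutation p = 0.00027), with r of 1.00 on slide 1 and 0.84 on slide 2. Without control array 1 and ezetimibe array 3, the 2 farthest from the median, r was 0.89. Actg2 and Tagln followed at r = 0.87 (0.96 on slide 1 and 0.77 on slide 2).

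Desmin belonged to the same group. Its r was 0.84 with Acta2, 0.83 with Actg2, 0.80 with Myh11 and 0.81 with Tagln. The weakest link on 1 slide within the group of 5 was between Actg2 and Myh11, where r was 0.78 over all arrays, 0.95 on slide 1 and 0.48 on slide 2.

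Cnn1 and Synm were looser. The 11 contractile pairs with either of them had r of 0.24 to 0.59, with unadjusted permutation p of 0.0415 to 0.477. Cnn1 was close to the detection limit, and the part of its low signal in the low r was not tested. Between the neuron genes r was -0.03 (permutation p = 0.926), and over the 15 pairs with a neuron gene the unadjusted permutation p was 0.172 or more.

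**Figure D3:**
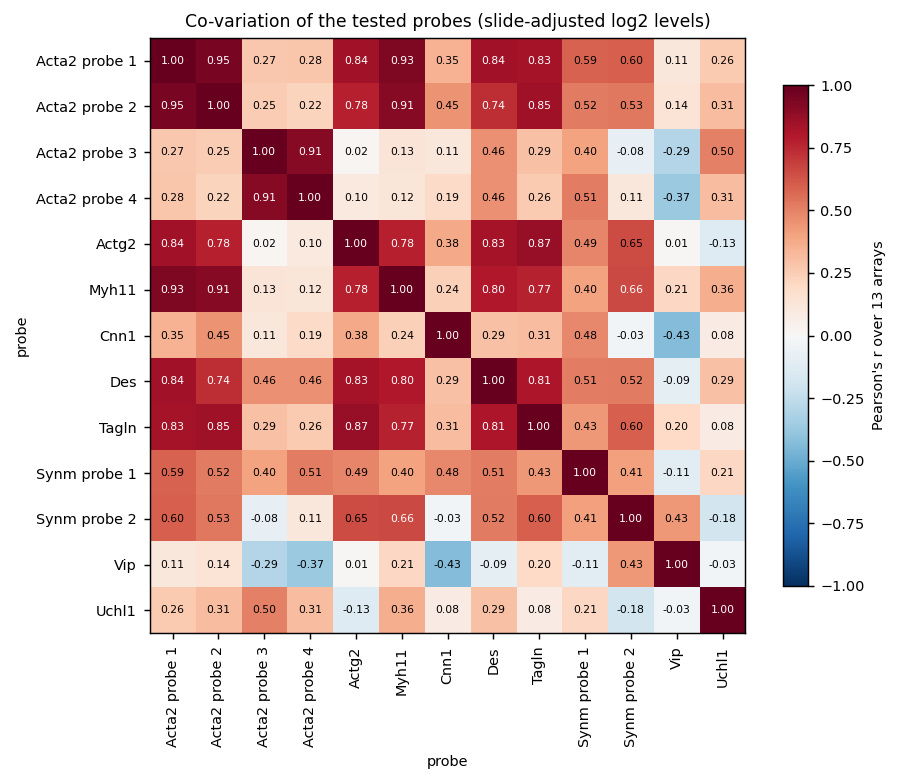
Pearson's r over 13 arrays (colour) between the slide-adjusted log2 levels of the tested probes of the 9 genes (both axes). The block of Acta2 probes 1 and 2 with Actg2, Myh11, Des and Tagln has high r, while Acta2 probes 3 and 4 pair with each other and Vip and Uchl1 stand apart.

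The 4 probes of Acta2 fell into 2 pairs. The brightest probes, 1 and 2, correlated at r = 0.95 and the dimmest, 3 and 4, at r = 0.91, but across the pairs r was 0.22 to 0.28. Probe 2 read 9.87, 10.30, 10.41, 9.99 and 9.96 in the ezetimibe arrays, and from 9.72 through 10.04 to 10.41 in the control arrays, with a log2 fold change of 0.02 ± 0.12 (SE, limma, adjusted p = 0.987). Its order of arrays was close to that of probe 1.

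Probe 3 read 8.91, 9.01, 9.53, 9.33 and 8.78 in the ezetimibe arrays, and from 8.84 through 9.37 to 9.62 in the control arrays. Probe 4 read 8.27, 8.38, 9.01, 8.63 and 8.54 in the ezetimibe arrays, and from 8.23 through 8.87 to 9.14 in the control arrays. Both had most ezetimibe values below the control median, with log2 fold changes of -0.21 ± 0.15 (adjusted p = 0.875) and -0.24 ± 0.16 (adjusted p = 0.864; SE, limma). The slides also moved the pairs differently. Slide 2 was higher than slide 1 by 0.77 for probe 1 and 0.92 for probe 2 (log2, limma adjusted p = 3.51e-05 and 2.01e-05), against a difference of 0.22 for probe 3 (adjusted p = 0.241) and -0.57 for probe 4 (adjusted p = 0.00738).

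The genes whose levels were most like those of Acta2 probe 3, a question put after its values were seen, were Slc5a9, a sugar transporter (r = 0.89), Pmp22, a myelin and junction protein (0.88), and Glrx2, a mitochondrial glutaredoxin, Eps8, an actin-regulating protein of microvilli, and Prnp, the prion protein (0.86 each). None of these is a contractile gene. Which transcript each of the probes binds was not tested here, so neither pair can be preferred on that ground. Lists and pairs of genes use probe 1 because it is the brightest. Probes 3 and 4, also detected on all 13 arrays, are given as a disagreement.

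To place this co-variation among all genes, every other tested probe was fitted on the level of Myh11 with slide and group in the model. At an adjusted p under 0.10, 65 of 11886 probes passed (0.547%), 18 rising with Myh11 (0.151%) and 47 falling (0.395%), and 1121 had an unadjusted p under 0.05 (9.43%). Of the 8 other genes, 2 passed and rose with it, Acta2, by probes 1 and 2 only, and Des. Per unit of log2 Myh11, Acta2 rose by 0.48 ± 0.08 on probe 1 and 0.52 ± 0.09 on probe 2 (SE, limma, adjusted p = 0.0569 for each), and Des by 0.57 ± 0.12 (adjusted p = 0.0697).

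The slopes of the other contractile genes did not pass. They were 0.52 ± 0.13 for Actg2 (adjusted p = 0.134), 0.59 ± 0.17 for Tagln (adjusted p = 0.222), 0.52 ± 0.18 and 0.31 ± 0.20 for the dimmer and the brighter tested probe of Synm (adjusted p = 0.345 and 0.673) and 0.14 ± 0.17 for Cnn1 (adjusted p = 0.866; SE, limma). Acta2 probes 3 and 4 had slopes of 0.14 ± 0.21 and 0.14 ± 0.22 (adjusted p = 0.894 and 0.895). For Vip the slope was 0.12 ± 0.20 (adjusted p = 0.903) and for Uchl1 0.45 ± 0.29 (adjusted p = 0.684).

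These calls lay close to the threshold. The number of probes passing was 0 without control array 2 or 3, 4 without control array 1 and 2 without ezetimibe array 3, and none of the 8 other genes passed when any 1 of these 4 arrays was left out. With any 1 of the 13 left out, the slope of Acta2 probe 1 stayed between 0.46 and 0.50 and its adjusted p between 0.0293 and 0.18. With position added as a covariate, it was 0.52 ± 0.09 (adjusted p = 0.154), and 0 probes passed (961 at an unadjusted p under 0.05). Myh11 itself correlated with position at r = -0.06 on slide 1 and -0.65 on slide 2, and the part of position in the co-variation was not otherwise tested.

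As a scale that does not depend on the threshold, r with Myh11 had a median of 0.02 over the 11886 other probes, with 6193 above 0 and a range of -0.92 to 0.93. An r of 0.80 or more was reached by 38 probes (0.32%). Over the other 6 contractile genes, the median was 0.77. In the authors' processed values, with slide means taken out, r with Myh11 was 0.91 for Acta2 probe 1, 0.71 for Actg2, 0.79 for Des and 0.75 for Tagln, and 0 probes passed the fit.

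**Figure D4:**
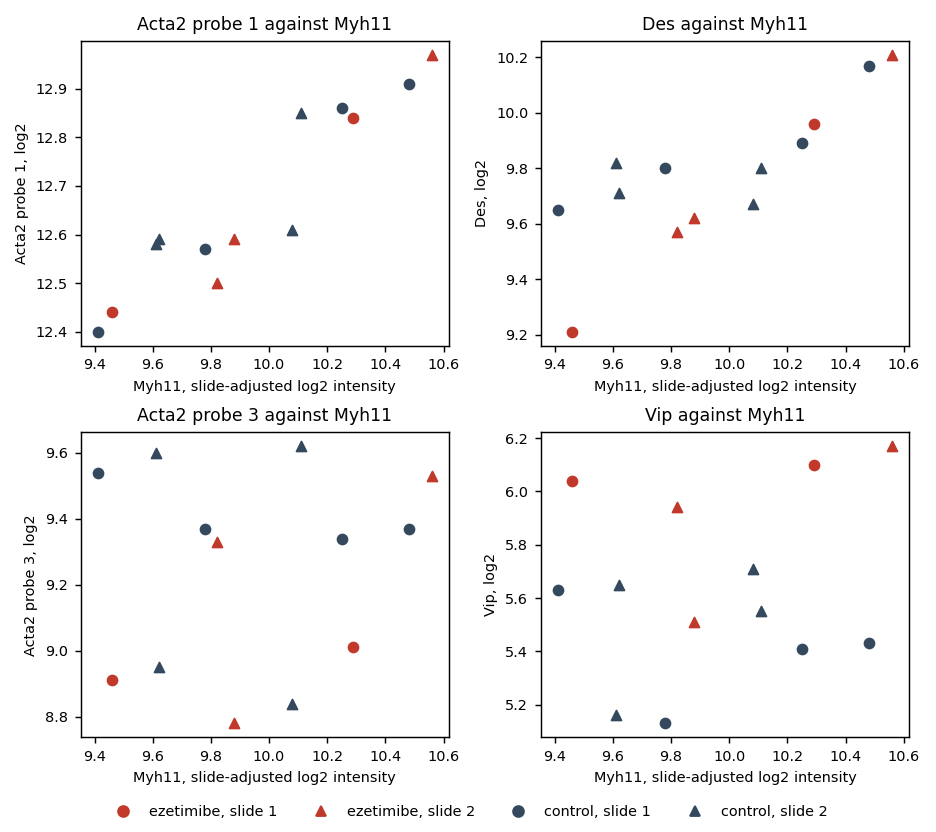
Slide-adjusted log2 level of Acta2 probe 1, Des, Acta2 probe 3 and Vip (y axes) against that of Myh11 (x axis), 1 point per array, with ezetimibe and control arrays marked. Acta2 probe 1 rises with Myh11 at r = 0.93 with both groups along 1 line, while Acta2 probe 3 shows r = 0.13.

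The 10 genes most like Myh11 over the 13 arrays, members left out, were Csrp1, a LIM protein of muscle and other cells (r = 0.92), Hspb6, a small heat shock protein of muscle (0.90), Rbpms, an RNA-binding protein (0.90), Smtn, smoothelin (0.87), Adam15, a membrane metalloprotease (0.87), Flna, the actin crosslinker filamin A (0.86), Lims2, a focal adhesion adaptor (0.85), Htr3a, a subunit of the serotonin-gated channel (0.85), the tyrosine kinase Src (0.85) and Pgap6 (0.85). Of these, Csrp1, Hspb6, Smtn, Flna, Src and Pgap6 passed the Myh11 fit (limma, adjusted p of 0.0569 to 0.0938). None passed the ezetimibe test, with adjusted p of 0.874 or more in limma, against 0.252% of all probes that passed. The 3 genes most unlike Myh11 were the one listed as ENSMUSG00000068790 (r = -0.92), Slc39a4, a zinc importer of enterocytes (-0.89), and Pabpc1, a poly(A)-binding protein (-0.89). Slc39a4 fell by a slope of -1.14 ± 0.15 per unit of Myh11 (SE, limma, adjusted p = 0.0264).

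Other smooth muscle genes, from a list of 39 of which 21 were tested, were read in both tests. None of the 21 passed the ezetimibe test, against 0.252% of all probes, and their median log2 fold change was 0.018. The smallest p belonged to Cav1, caveolin of the plasma membrane, at 0.26 ± 0.17, and Hspb1, a small heat shock protein, at -0.21 ± 0.14 (log2 fold change with SE, limma, adjusted p = 0.861 for both). In the Myh11 fit 5 of the 21 rose with it and 0 fell, against 18 rising (0.151%) and 47 falling (0.395%) of all 11886 probes: Mylk, the myosin light chain kinase (r = 0.83), Csrp1, Hspb6, Smtn and Flna. Of the 21, 20 had r above 0, with a median of 0.49, against 0.02 over all probes. Tpm2 and Tpm1, tropomyosins, had r of 0.82 and 0.72, and Vcl, vinculin of adhesion sites, had r of 0.00. The mean of these genes over the arrays had r = 0.90 with the contractile mean (0.97 on slide 1 and 0.80 on slide 2).

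That contractile mean was 8.48, 9.14, 9.19, 8.67 and 8.82 in the ezetimibe arrays, and ran from 8.62 to 9.10 in the control arrays. Its means were 8.86 ± 0.30 (SD, n = 5) in the ezetimibe arrays and 8.88 ± 0.16 (SD, n = 8) in the control arrays. Ezetimibe array 1 was the lowest of all 13 and ezetimibe array 3 the highest, so the ezetimibe group spans the whole range.

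Genes of enteric neurons were measured only in part. Of 36 further neuron genes 34 were on the array and 14 were tested. Among those not tested, Elavl3, Elavl4, Tubb3, Snap25, Prph, Chat and Nos1 were each detected on at most 2 of 13 arrays. Among those tested, Ret, Calb2, Cartpt and Syp were detected on 13 arrays, Tac1, Gal and Stmn2 on 12 and Npy on 11. None of the 14 passed the ezetimibe test, against 0.252% of all probes. The smallest p belonged to Sst, somatostatin, at a log2 fold change of -0.39 ± 0.20 (SE, limma, adjusted p = 0.829), and Map1b, a microtubule protein, at -0.29 ± 0.16 (adjusted p = 0.840). Several of the tested genes, among them Sst, Scg2 and Chgb, are also made by enteroendocrine cells of the mucosa, so the list does not stand for neurons alone.

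With Myh11, 11 of the 14 had r above 0, against 6193 of all 11886 probes, and 0 passed the fit, against 65 of all probes (0.547%). Syp, synaptophysin, had r = 0.79, Stmn2, a microtubule regulator of growing axons, 0.72, and Map1b -0.62. The median was 0.37, against 0.02 over all probes. The mean of the list had r = 0.37 with the contractile mean, at 0.83 on slide 1 and 0.22 on slide 2, so the 2 slides gave different values.

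Fits on the neuron genes themselves found no partner. With Uchl1 0 of 11886 probes passed in limma (887, or 7.46%, at an unadjusted p under 0.05), and with Vip 0 passed (501, or 4.22%, unadjusted). The genes most like Uchl1 were Jkamp and Rhobtb2 (r = 0.85 each) and Galt, LOC670044 and Timm10b (0.83 each), where 8 probes (0.0673%) reached an r of 0.80. Most like Vip were Asns, asparagine synthetase, and Fbxw7, a ubiquitin ligase subunit (0.88 each), Rsrc1 (0.85), and Cib2 and Parm1 (0.82 each), where 13 probes (0.109%) reached it. These r were taken over levels that keep the group difference, so genes picked by r with Vip tend to share its log2 fold change. For Asns the log2 fold change was 0.45 ± 0.14 (SE, limma, adjusted p = 0.418). With group in the model, the slope of Asns on Vip was 0.70 ± 0.26 (SE, limma, unadjusted p = 0.0165) and did not pass.

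Markers of the other cells of the wall were set beside the contractile genes. In each list 0 genes passed the ezetimibe test or the Myh11 fit, against 0.252% and 0.547% of all probes. With shares this small, 0 in such short lists does not set them apart from all probes. The 1 gene among them with an unadjusted p under 0.05 for ezetimibe was Vim, vimentin of mesenchymal cells, at a log2 fold change of -0.36 ± 0.16 (SE, limma, adjusted p = 0.784). Median r with Myh11 was 0.52 for 4 of 12 striated muscle genes, 0.25 for 7 of 7 pericyte and vascular muscle genes, 0.18 for 5 of 9 adipocyte genes, 0.10 for 10 of 16 fibroblast and matrix genes, 0.08 for 2 of 12 glial genes, 0.01 for 2 of 6 mesothelial genes, -0.08 for 11 of 15 epithelial genes and -0.18 for 8 of 12 endothelial genes. The 4 tested striated muscle genes had r of 0.76 (Myl1), 0.66 (Ckm), 0.38 (Tnni2) and -0.18 (Acta1), and Actc1, Myh1, Myh2, Myh4, Myl2, Tnnt3 and Tnnc2 were detected on 0 arrays. Of markers of interstitial cells of Cajal only Prkcq was tested (r = 0.52). The mean of the striated muscle list had r = 0.79 with the contractile mean (0.96 on slide 1 and 0.60 on slide 2). For the epithelial mean it was 0.57 (0.69 on slide 1 and 0.37 on slide 2). The remaining list means had 0.49 for pericyte, 0.33 for adipocyte, 0.28 for mesothelial, 0.21 for fibroblast, 0.13 for glial and -0.32 for endothelial genes.

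Markers of neighbouring organs were read in the same way. Exocrine pancreas genes had a median r of 0.32 with Myh11, and their mean had r = 0.21 with the contractile mean (0.61 on slide 1 and -0.13 on slide 2). Stomach genes, 4 of 12 tested, had a median r of 0.13, and their mean had r = 0.00 with the contractile mean. With the pancreas mean as a covariate, 60 probes passed the Myh11 fit and 1 of the 8 other genes did. Without control 4 and ezetimibe 4, the arrays of each group highest in pancreas markers before slide adjustment, 1 probe passed and 0 of the 8 genes did. Both settings were added after seeing the data. The epithelial mean had r = 0.57 with the contractile mean, and its part in the co-variation was not tested. These r are descriptions over 13 arrays of 2 slides.

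**Figure D5:**
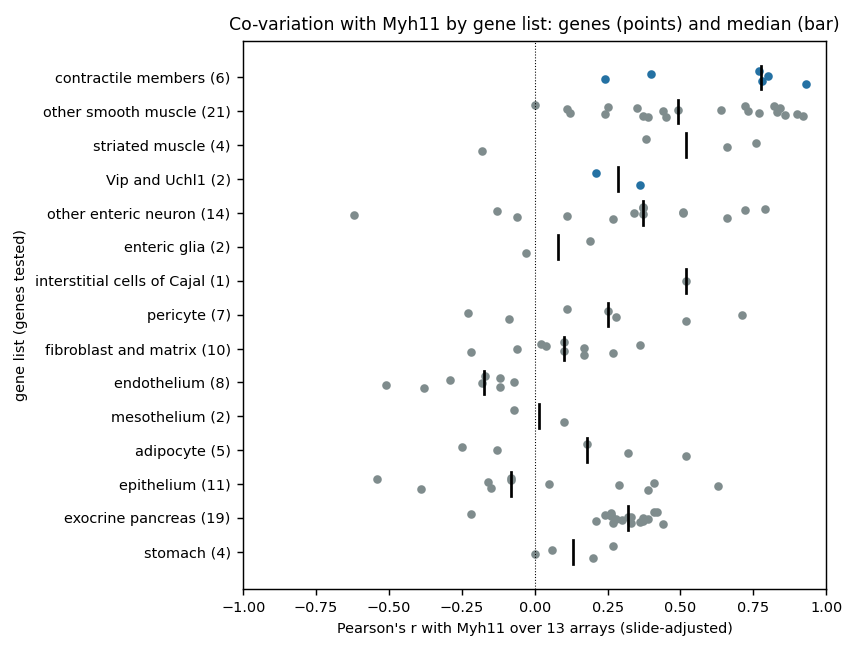
Pearson's r with Myh11 over 13 arrays (x axis) of each tested gene (points) in each gene list (y axis, number tested in brackets). Of 21 other smooth muscle genes 20 lie to the right of 0, up to 0.92, with a median of 0.49, and the 8 endothelial genes all lie below 0.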

How the data were processed

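The unnormalized table was deposited with 2 columns per array, per the file headers: the average signal of each probe's beads, which is an intensity (linear scale), and its detection p-value. A deposited table of processed intensities of the same arrays was used as an alternative only. The series' design text states quantile normalization and batch correction with Combat for it. The exporting software and the offset or centring of the processed values are not given in the sources used.

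The neqc function of limma 3.58.1 (R 4.3.3) corrected background by the detection p-values with an offset of 16, quantile-normalized the signals and took log2. Slide and position on the slide were read from the array names. Probes detected (p under 0.05) on 5 or more of 13 arrays entered the fits (11887 probes, 8974 genes, 46.3%). Each fit (lmFit, eBayes with an intensity trend) had slide and group, and for co-variation the level of Myh11, Uchl1 or Vip as well. An adjusted p (Benjamini-Hochberg, over all tested probes) under 0.10 passed. Each probe was tested on its own, and lists and pairs used the brightest tested probe. Slide-adjusted levels are log2 intensities minus the slide term of the fit. P-values measure the spread between mice, as the labels describe the replicates.

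Symbols were updated through a RefSeq table of GRCm38.p6: 20439 probes had a current symbol, 4135 matched a synonym, 1103 kept the file's name and 20 stayed unnamed. The 9 genes, the lists and the tests were chosen with earlier results of these data known. Named genes were all members, the 10 genes most and 3 least correlated with Myh11, the 5 most correlated with Uchl1 and with Vip, and per list those past the threshold or with the smallest p. Other genes named from a list were chosen after their values were seen. The fits were tested on simulated data. Alternatives changed the background correction, normalization, filter, slide and position terms, variance model and anchor gene, or left out each array in turn.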

Additional observations from a re-analysis of the deposited data

Results flagged for a closer look

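Of 26 groups of levels (13 probes in each group of mice), 2 held an array that stood apart from the rest of its group, and about 1 group in 20 is picked out by chance. Des read 10.17 on the first control array, against 9.89 on the next highest control, a gap of 0.54 of the control range. The same array was the highest control for Myh11 and for the brightest Acta2 probe. The brighter probe of Synm read 7.82 on the sixth control array, against 7.35 on the next, a gap of 0.53 of the control range.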

How the results depend on the processing

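None of the tested probes of the 9 genes passed the ezetimibe test under any of 30 alternatives that left out an array, a slide or the slide term or changed the background correction, normalization, filter, covariate or variance model. Over 374 such values the lowest adjusted p in limma was 0.199, for Vip with position as a covariate, a term that overlaps with treatment on slide 1. Vip kept its sign throughout, at 0.077 (the deposited processed values) to 0.67. In 40 of the 374 the sign turned. The contractile median ran from -0.098 to 0.13, where the upper end came with median scaling, which also moved the median of all tested probes to 0.088. The whole table had 30 probes past the threshold, against 17 without a slide term, 6 on slide 1, 10 on slide 2, and 20 to 45 without 1 array.

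The turned log2 fold changes were, for Acta2 probe 1, 0.13 with median scaling, 0.073 without a slide term, 0.0095 with slide as a random block, 0.027 on slide 2, 0.07 with position and 0.024 without control 4 and ezetimibe 4, the highest of their groups in pancreas markers before slide adjustment; for Des, 0.056 with median scaling and 0.048 on slide 2. On slide 1 they were -0.011 for Acta2 probe 2, -0.065 for Actg2, -0.11 for Myh11 and -0.0035 for Tagln, on slide 2 0.046 for Acta2 probe 4, with position 0.0099 for Uchl1, and with the pancreas covariate -0.0035 for Actg2. Leaving out 1 array gave -0.079 to 0.068 for Acta2 probe 1, -0.051 to 0.1 for probe 2, -0.098 to 0.13 for Actg2, -0.054 to 0.26 for Myh11, -0.22 to 0.059 for Des, -0.047 to 0.24 for Tagln and -0.26 to 0.0084 for the brighter Synm probe. The cause was not tested.

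With the replicate number as a block, 23 probes passed in all and 0 of the 9 genes, and the log2 fold changes that turned were -0.11 for Myh11, 0.052 for Cnn1 and 0.058 for the brighter Synm probe. Arrays with the same number did not deviate together as a set (r of 0.12, -0.13, 0.05, 0.36 and -0.42 for numbers 1 to 5). The number was therefore treated as a name only, and whether such mice were paired in another way was not tested.

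The median r of contractile pairs lay between 0.48 and 0.80 in the 21 alternatives run for it, which did not include position, no filter, no group term or the pancreas settings. The Myh11 fit was less stable. From 65 probes and 2 of the other genes, it went to 1368 and 5 with median scaling (where the median r over all probes was 0.41), 0 and 0 with the deposited processed values, 38 and 1 without a filter, 0 and 0 with position, 35 and 1 without a group term, 10 and 0 with Actg2 in place of Myh11, 1 and 0 without control 4 and ezetimibe 4, and 0 to 88 and 0 to 3 without 1 array. With the pancreas covariate 1 of the other genes passed. The Uchl1 fit gave 30 probes with median scaling and 0 to 1 without 1 array, and the Vip fit 1 without a group term and 0 to 3 without 1 array. At a detection p under 0.01 on all arrays Vip and Uchl1 were not tested. The settings with pancreas markers and the reading of member genes were added after seeing the data. Cnn1 and Uchl1 were not detected on every array, so part of their values lie at background. The tested Vip probe was detected on 13 arrays, but its signal was low.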
